A study of Mus musculus with 2 samples.

Results

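The genes of the oxidative stress response directed by the transcription factor NRF2 were examined in embryonic mouse ureters exposed to the GSK3 inhibitor BIO. The 10 genes were Nfe2l2, which encodes NRF2, its repressor gene Keap1, and 8 genes of heme breakdown, glutathione supply and the thioredoxin system, namely Hmox1, Gclc, Gclm, Slc7a11, Gsr, Txnrd1, Srxn1 and Prdx1. They were taken by name, and no measured value enters the rule. All biological probes carrying 1 of these names in the scanner files were used, which gave 13 of 39429 biological probes and 10 of 29875 named genes. Hmox1, Gsr and Prdx1 had 2 probes each and the other 7 genes had 1.

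Both groups came from wildtype NMRI embryos at E12.5, with the sex not determined. Their ureters were cultured for 18 h on membranes, in medium with 10 µM BIO or in medium with the solvent DMSO at 0.2% (control). RNA of pooled ureters was used, so that all tissues of the ureter contribute to every value. There were 2 arrays, each with control RNA in one color and BIO RNA in the other. The BIO RNA was red (AlexaFluor647) in replicate 1 and green (AlexaFluor555) in replicate 2, and all ratios are given as BIO over control.

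NRF2 is held at a low level by KEAP1, which hands it to a ubiquitin ligase for destruction. Electrophiles and oxidants disable KEAP1, and NRF2 then pairs with a small MAF protein and binds antioxidant response elements in front of genes for antioxidant and detoxifying enzymes. GSK3 phosphorylates NRF2 and marks it for a second route of destruction through the ligase adaptor beta-TrCP, which is why a GSK3 inhibitor raises the question of a response of these genes. Much of this control acts on the NRF2 protein, which arrays do not measure.

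The sequence by which NRF2 recognizes its targets was looked up in the promoters of the 10 genes. RefSeq windows (GRCm38.p6) of 250 bases before to 50 bases after a transcription start were given for 7 of the 10 genes, in 9 windows, and were not given for Hmox1, Gclc and Gsr. The core of the antioxidant response element was searched as TGACNNNGC on both strands. It stood in 5 of the 9 windows, against 12.4% of the 32851 windows of all genes. In Srxn1 the match lay behind the start, and in Gclm, Nfe2l2, Prdx1 and Txnrd1 it lay in front of it. The stretches around these matches are shown 5′ to 3′ on the strand of the gene, with the core, or its reverse complement, in capitals, to show which letters matched.
Gclm, chr3:122245393-122245461, plus strand: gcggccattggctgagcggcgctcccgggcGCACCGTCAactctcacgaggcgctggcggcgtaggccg
Nfe2l2, chr2:75704865-75704913, minus strand: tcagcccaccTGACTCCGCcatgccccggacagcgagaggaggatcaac
Prdx1, chr4:116685436-116685504, plus strand: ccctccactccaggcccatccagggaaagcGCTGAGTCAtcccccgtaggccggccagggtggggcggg
Txnrd1, chr10:82859084-82859152, plus strand: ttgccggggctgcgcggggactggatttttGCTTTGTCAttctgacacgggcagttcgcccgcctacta

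The windows of Slc7a11 and Keap1 and the other 2 windows of Txnrd1 did not hold the letters of this core. The core can overlap the AP-1 core TGACTCA, and did so at the match of Prdx1 shown above. The AP-1 core stood in 2 of the 9 windows, in Prdx1 and Srxn1, against 5.2% of all windows. The window of Slc7a11 held the letters TGATGNAA, the core of the amino acid response element bound by ATF4, on both strands. It stood in 3.97% of all windows. The AP-1 and amino acid response motifs were added to the search after the windows had been seen. The stretch with both matches in capitals is shown because Slc7a11 is the gene of the 10 that was called risen in the main setting. That call held in 4 of 7 alternative ways of processing.
Slc7a11, chr3:50443623-50443709, minus strand: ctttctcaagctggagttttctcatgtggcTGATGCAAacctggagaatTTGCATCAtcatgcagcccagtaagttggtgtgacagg

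BIO acts on WNT signaling and, as an indirubin, can bind the aryl hydrocarbon receptor (AHR), so the motifs of these pathways were searched too. The AHR core GCGTG stood in 6 of the 9 windows, in Gclm, Keap1, Srxn1 and Txnrd1, against 32.4% of all windows. The TCF/LEF core TTCAAAG stood in 1 window of Txnrd1, against 5.14% of all. A match of so few letters is a description of the sequence and no measure of binding.

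All 13 probes were well above background in both channels of both arrays and were tested. All 8 genes of a list of WNT and AHR targets rose, with log2 ratios from 1.07 to 2.80. This list, like the marker lists, was chosen with results of these data known. Its count is thus a description and no independent check of the treatment. Epithelial and mesenchymal markers of the ureter were all measured. Markers of several cell types also changed, in that all 8 endothelial markers fell (median log2 ratio -1.83), 6 of 10 macrophage and 4 of 9 erythroid markers fell, as did 5 of 8 epithelial, 6 of 8 mesenchymal and 2 of 5 tested Schwann cell precursor and neuronal markers, and all 8 proliferation genes rose (median 1.03). Over all tested genes by their brightest probe, 9.13% rose and 14.8% fell. The part of the marker shifts in the results below was not tested. In such bulk RNA, fewer cells of a type and less RNA per cell cannot be told apart.

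Neither the transcript of NRF2 nor that of KEAP1 passed the test, and their 95% intervals after loess excluded a 2-fold change. The processed signal of the Nfe2l2 probe (NM_010902, chromosome 2, 75513771 to 75513830, mm9) was 9390 and 10098 in control and 8702 and 10534 with BIO, in the order of replicates 1 and 2, which all pairs of values below follow. BIO was lower on one array and higher on the other, and the groups overlapped. After loess normalization the log2 ratio of Nfe2l2 was -0.15 and 0.03, with a mean of -0.06 ± 0.11 (SE, n = 2), a 95% interval of -0.32 to 0.20 and an adjusted p of 0.751 (limma). The probe of Keap1 (NM_016679, chromosome 9) spans 21035292 to 21035732 in the file, a span longer than its 60 bases, as a match across an intron gives. Its processed signals were 2105 and 2157 in control and 2018 and 2045 with BIO. Both BIO values lay below both control values. The log2 ratio of Keap1 was -0.11 and -0.10, with a mean of -0.11 ± 0.11, an interval of -0.35 to 0.14 and an adjusted p of 0.539.

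**Figure D1:**
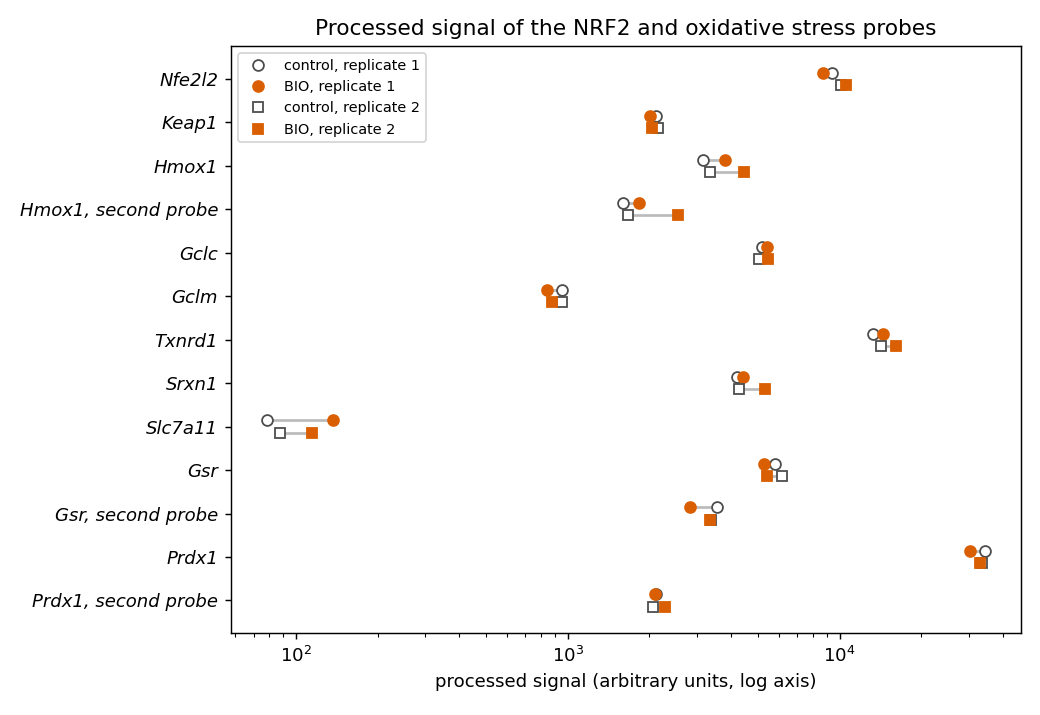
Processed signal of each of the 13 probes on a log axis, with open symbols for control, filled symbols for BIO, circles for replicate 1 and squares for replicate 2. The control and BIO points lie close together for most probes and stand farther apart for Slc7a11, at 78.2 and 137 in replicate 1, and for both probes of Hmox1. Positions of different probes cannot be compared, since each probe has its own brightness.

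Hmox1 encodes heme oxygenase 1, which opens the heme ring and is among the most inducible NRF2 targets. Its brighter probe (NM_010442, chromosome 8, 77624207 to 77624266) gave processed signals of 3146 and 3353 in control and 3806 and 4467 with BIO. Both probes of Hmox1 were higher with BIO on both arrays, and the groups did not overlap. Such a separation of the processed signals was common among the 13 probes. BIO lay above control at 6, below it at 5, and the groups overlapped at 2. The share over all probes was not counted, so these counts are no result about the 13 probes. They also leave out the loess step. At Txnrd1 both BIO signals lay above control, while its log2 ratio in replicate 1 was -0.02 after loess. The log2 ratio of the brighter probe was 0.20 and 0.43, with a mean of 0.32 ± 0.11 (SE, n = 2), an interval of 0.05 to 0.58, an unadjusted p of 0.0248 and an adjusted p of 0.0851 (limma), and it did not pass the test. The second probe, at 77620797 to 77620856, gave 1595 and 1666 in control and 1826 and 2557 with BIO. Its log2 ratio of 0.12 and 0.62, with a mean of 0.37 ± 0.14 and an adjusted p of 0.0907, also failed the test. The arrays differed by 0.50 at this probe, the largest such difference of the 13. Hmox1 is also known to be expressed in macrophages, whose marker list had summed processed signals of 8679 and 9895 in control and 5828 and 8462 with BIO.

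Glutathione is made from cysteine by glutamate-cysteine ligase, whose catalytic subunit is encoded by Gclc and whose modifier subunit is encoded by Gclm. Slc7a11 encodes the transporter that brings in cystine, and Gsr encodes the reductase that restores oxidized glutathione. Of these 4 genes, 1 rose and 0 fell, against 9.13% and 14.8% of all tested genes. Slc7a11 was the 1 gene of the 10 that passed the test.

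The processed signals of the Slc7a11 probe (NM_011990, chromosome 3, 50169700 to 50169759) were 78.2 and 87.5 in control and 137 and 115 with BIO. Both BIO values lay above both control values. The arrays gave log2 ratios of 0.50 and 0.32, whose mean was 0.41 ± 0.11 (SE, n = 2), an interval of 0.15 to 0.67 and an adjusted p of 0.0333 (limma), or a 1.33-fold higher level. The probe was dim, and an offset of 50 intensity units was added before logs were taken, which pulls such ratios toward 0. The call did not hold in every setting. It was lost with the processed signals, at 0.60 and an adjusted p of 0.0938, with median centering instead of loess, at 0.29 and 0.510, and in the deposited table of fold changes, at 0.61 and 0.282, although the direction was the same in all 7 alternatives.

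Gclc and Gclm, the subunits of 1 enzyme, did not pass the test. The Gclc probe (NM_010295, chromosome 9, 77641296 to 77641355) gave 5166 and 5053 in control and 5401 and 5455 with BIO, and its log2 ratio was 0.07 ± 0.11, with an interval of -0.19 to 0.32 and an adjusted p of 0.722. The Gclm probe (NM_008129, chromosome 3, matched in parts between 121962174 and 121964809), whose promoter core is shown above, gave 957 in control on both arrays and 839 and 876 with BIO. Gclm had the lowest log2 ratio of the 10 genes, -0.21 ± 0.11, with -0.31 and -0.12 on the arrays, an interval of -0.47 to 0.05 and an adjusted p of 0.217. The brighter Gsr probe (NM_010344, chromosome 8, 34808488 to 34808547) gave 5768 and 6132 in control and 5297 and 5421 with BIO. Its log2 ratio was -0.17 ± 0.11, with an adjusted p of 0.302. The second Gsr probe, at 34808413 to 34808472, gave 3538 and 3360 in control and 2816 and 3334 with BIO. Its log2 ratio was -0.39 on one array and 0.03 on the other, with a mean of -0.18 ± 0.13 and an adjusted p of 0.371, so the 2 probes had like means but not like arrays.

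In the thioredoxin system, Txnrd1 encodes the cytosolic reductase of thioredoxin, Prdx1 a peroxiredoxin that removes hydrogen peroxide, and Srxn1 the sulfiredoxin that repairs overoxidized peroxiredoxins. None of their 4 probes passed the test. At an unadjusted p below 0.05 there were 0 of these probes as well, against 36.1% of all tested probes. The Srxn1 probe (NM_029688, chromosome 2, 151937009 to 151937068) gave 4212 and 4286 in control and 4418 and 5299 with BIO, which were both above control. Its log2 ratio was 0.03 and 0.30, with a mean of 0.16 ± 0.12, an interval of -0.11 to 0.44 and an adjusted p of 0.368. The Txnrd1 probe (NM_001042523, chromosome 10, 82360230 to 82360289) gave 13316 and 14161 in control and 14498 and 16079 with BIO. Its log2 ratio was -0.02 and 0.23 after loess, with a mean of 0.11 ± 0.12 and an adjusted p of 0.572.

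Prdx1 was measured by a very bright probe (NM_011034, chromosome 4, 116371818 to 116371877), with 34156 and 33373 in control and 30304 and 32799 with BIO, and by a second probe at 116372422 to 116372481, with 2120 and 2059 in control and 2098 and 2285 with BIO. The log2 ratio was -0.09 ± 0.11 for the first, with an adjusted p of 0.594, and 0.03 ± 0.11 for the second, with an adjusted p of 0.883. Both intervals held 0, and the signs of both probes turned with median centering, to 0.16 and -0.032.

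**Figure D2:**
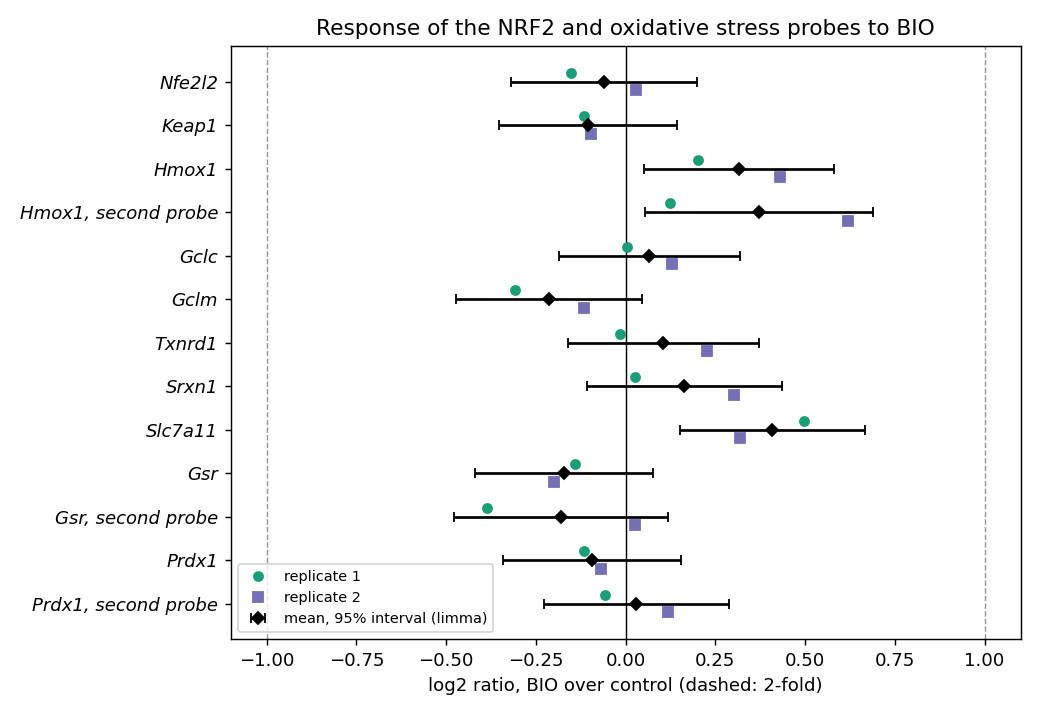
Log2 ratio of BIO over control for each of the 13 probes, with circles for replicate 1, squares for replicate 2, and diamonds with bars for the mean and its 95% interval from limma. All 13 intervals, from the main setting, lie between the dashed lines at 2-fold, from -0.48 at the lowest to 0.69 at the highest. Of these intervals 3, those of both probes of Hmox1 and the probe of Slc7a11, lie wholly above 0.

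Of the 13 probes, 1 (7.69%) passed the limma test at 0.05 upward and 0 passed it downward, with n = 2 arrays. Of all 28824 probes tested, 8.95% rose and 14.3% fell, so the share that rose was near that of the whole array. At an unadjusted p below 0.05 there were 3 of the 13 probes (23.1%), against 36.1% of all probes, and all 3 were higher with BIO. In the main setting, the 95% intervals of all 13 probes excluded a 2-fold change in either direction, with fold limits from 0.718 to 1.61. For the dim Slc7a11 probe the added offset pulls the ratio, and with it the interval, toward 0. Its log2 ratio was 0.41 in the main setting, 0.60 with the processed signals and 0.61 in the deposited table. Whether a 2-fold change is excluded in those other settings was not tested. The intervals rest on the same loosely estimated spread as the calls and may be too narrow. Under a rule without a test, which asks for a 2-fold ratio of the same sign on each array and a brighter channel of at least 100, 0 of the 10 genes passed. The rule was met by 0.951% of all tested probes upward and by 1.88% downward. With a minimum of 1.5-fold the count of the 10 genes was also 0.

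The median of the 10 genes lay near that of the whole array after loess, and less near it with median centering. Their median log2 ratio was 0.00 (-0.07 on the first array and 0.08 on the other), and that of all 21574 genes tested was -0.01. With median centering these medians were 0.11 and -0.04. Of the 10, 5 genes lay above 0 and 5 below, from -0.21 for Gclm to 0.41 for Slc7a11. The signs of 2 genes, Nfe2l2 and Txnrd1, differed between the arrays. The median size of the log2 ratio was 0.13 for the 10 genes and 0.19 for all genes. Of the 13 probes, 11 had the higher ratio in replicate 2, in which BIO was green, and 56.9% of all tested probes did so. Dye and replicate cannot be told apart in 2 arrays.

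**Figure D3:**
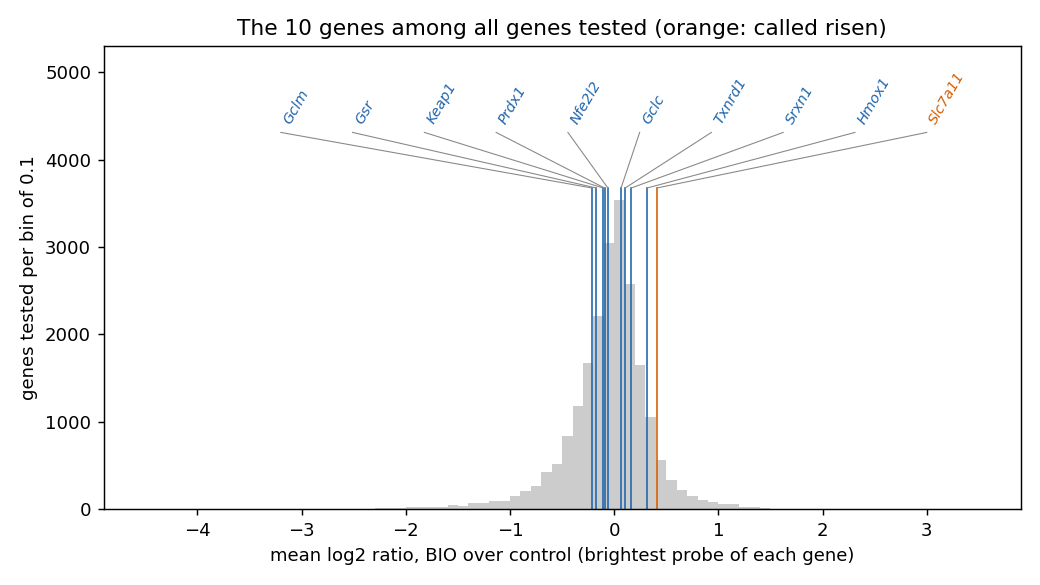
Histogram of the mean log2 ratio of BIO over control for the 21574 genes tested, each by its brightest probe, in bins of 0.1, with vertical lines at the 10 NRF2 and oxidative stress genes. The lines stand within the central peak, from -0.21 to 0.41, and the orange line marks Slc7a11, the gene called risen.

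The wider NRF2 and redox network was followed in 9 lists with 75 further genes, all of which were tested. Of these, 2 rose (2.67%), 11 fell (14.7%) and 62 did not pass the test. Over all genes by their brightest probe 9.13% rose and 14.8% fell. The median log2 ratio of the 75 genes was -0.15. The genes that passed were spread over 7 of the 9 lists. Of these 13 calls, those of Osgin1, Maff and Slc40a1 held with the processed signals, and those of Osgin1 and Taldo1 held in the deposited table. Median centering ended the calls of Gpx4, Glrx2, Prdx5 and Taldo1.

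Of 8 relatives, partners and competitors of NRF2, 1 rose, 2 fell and 5 did not pass the test. NRF2 binds DNA as a pair with a small MAF protein, and of the 3 small MAF genes Mafg rose, Maff fell and Mafk did not pass the test. Mafg gave processed signals of 9047 and 9825 in control and 15220 and 13373 with BIO, with a log2 ratio of 0.56 ± 0.11 (SE) and an adjusted p of 0.00889 (limma). All 3 further probes of Mafg rose too, by 0.46 to 0.60. Maff gave 1219 and 1255 in control and 460 and 597 with BIO, with a log2 ratio of -1.24 ± 0.13 and an adjusted p of 3.95e-04. The groups of both genes stood well apart, in opposite directions.

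Bach1 encodes a repressor that competes with NRF2 at Hmox1 and other targets. It gave 5091 and 5401 in control and 6225 and 7285 with BIO, with a log2 ratio of 0.33 ± 0.11, an interval of 0.07 to 0.60 and an adjusted p of 0.0691, and did not pass the test. Nfe2, an erythroid relative of Nfe2l2, fell by 0.68 on the log2 scale (adjusted p = 0.00886, limma). Beside it 4 of 9 erythroid markers fell, against 14.8% of all genes, and the median log2 ratio of that list was -0.37. The erythroid list had summed processed signals of 190106 and 216232 in control and 141555 and 117876 with BIO.

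Among 9 genes tied to the turnover of NRF2, 0 passed the test, with log2 ratios from -0.32 to 0.35. They include Cul3 and Rbx1 of the KEAP1 ligase, Btrc and Fbxw11 of the beta-TrCP route, and both genes of GSK3, the kinase that BIO inhibits. Gsk3a had a log2 ratio of -0.01 ± 0.12 and an adjusted p of 0.966. Gsk3b gave 5530 and 5951 in control and 7548 and 7374 with BIO, with a log2 ratio of 0.35 ± 0.11, an interval of 0.10 to 0.60 and an adjusted p of 0.0512, just outside the threshold. Its 2 further probes gave 0.00 and 0.22.

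**Figure D4:**
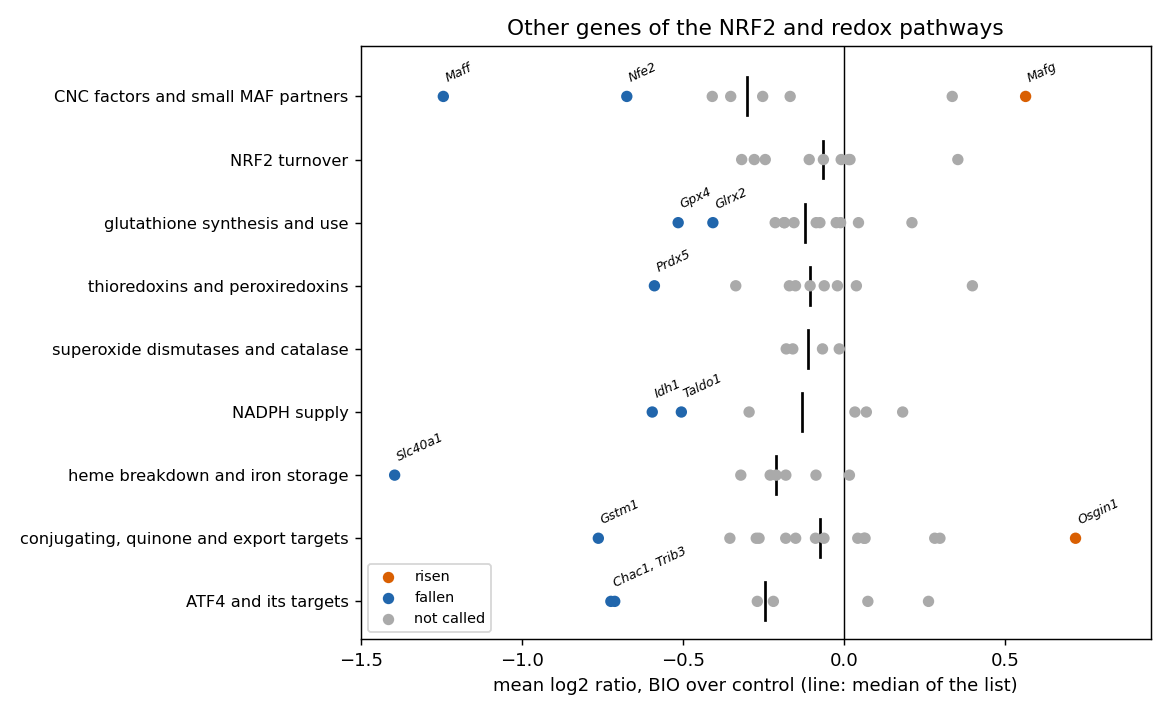
Mean log2 ratio of BIO over control for the 75 further genes in 9 lists, 1 point a gene, in orange where it rose, blue where it fell and gray where it did not pass the test, with a vertical line at the median of each list. Named are the 13 genes that passed, of which Mafg and Osgin1 rose and 11 fell, down to -1.40 for Slc40a1.

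Of the 12 further genes of glutathione synthesis and use, 2 fell. Gpx4, the glutathione peroxidase that reduces lipid peroxides, gave 20758 and 20361 in control and 13965 and 15900 with BIO, with a log2 ratio of -0.52 ± 0.13 and an adjusted p of 0.0221. Glrx2, a glutaredoxin, fell by 0.41 at its brightest probe (adjusted p = 0.0288, limma) and by 0.40 at a second, while the other probe, which is dim, gave 0.23. Over the 7 alternatives the log2 ratio of its brightest probe ran from -0.50 to -0.05, and the call held in 4 of them. Slc3a2, the partner chain of the cystine transporter SLC7A11, had a log2 ratio of 0.21 ± 0.11 and an adjusted p of 0.206.

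Of 9 further thioredoxins and peroxiredoxins, 1 fell. Prdx5 gave 23301 and 24067 in control and 15530 and 17094 with BIO, with a log2 ratio of -0.59 ± 0.11, an adjusted p of 0.00737 and a fall of 0.50 at its second probe. The 4 superoxide dismutase and catalase genes did not pass the test, with log2 ratios from -0.18 to -0.02. Of 6 genes that supply NADPH, the reducing power for GSR and TXNRD1, 2 fell. These were Idh1, with -0.60 ± 0.12 (adjusted p = 0.00927), and Taldo1, with -0.51 ± 0.11 (adjusted p = 0.0124).

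In heme breakdown and iron storage 1 of 7 genes fell. It was Slc40a1, which encodes the iron exporter ferroportin, with 16505 and 17012 in control and 5972 and 7229 with BIO. The log2 ratio of Slc40a1 was -1.40 ± 0.12, at an adjusted p of 2.13e-04 (limma). Macrophages and erythroid cells are known to express ferroportin. Beside it 6 of 10 macrophage markers and 4 of 9 erythroid markers fell, against 14.8% of all genes. The median log2 ratios of these lists were -0.49 and -0.37, smaller in size than that of Slc40a1. A relation of Slc40a1 to these markers was not tested. Hmox1, which precedes ferroportin in the handling of heme iron, did not pass the test, with both BIO values above control, and Slc40a1 fell.

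Of 14 conjugating, quinone and export targets, 1 rose and 1 fell. Osgin1, an oxidative stress induced growth inhibitor, gave 43.1 and 55.0 in control and 92.2 and 112 with BIO, with a log2 ratio of 0.72 ± 0.11 and an adjusted p of 0.00252. Its call held in all 7 alternatives. Gstm1, a glutathione transferase, fell by 0.76 at its brighter probe (adjusted p = 0.00295) and by 0.49 at the other. Nqo1, the quinone reductase that is often read as the marker of NRF2 activity, gave 662 and 521 in control and 748 and 764 with BIO. Both BIO values were higher, with log2 ratios of 0.06 and 0.53, a mean of 0.30 ± 0.14, an interval of -0.02 to 0.61 and an adjusted p of 0.158, so Nqo1 did not pass the test.

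ATF4, the factor of the amino acid response, is another known regulator of Slc7a11. Atf4 itself gave a log2 ratio of -0.22 ± 0.11 and an adjusted p of 0.183. Of the 6 genes of this list 0 rose and 2 fell, both of them targets of ATF4. Chac1, which encodes an enzyme that breaks down glutathione, gave 6126 and 6212 in control and 3219 and 4364 with BIO, with a log2 ratio of -0.72 ± 0.13 and an adjusted p of 0.00474. Trib3, a pseudokinase gene, fell by 0.71 (adjusted p = 0.00775). The other members did not pass, among them Ddit3 with a log2 ratio of 0.26 ± 0.11 and an adjusted p of 0.121, Asns with 0.07 ± 0.14 and 0.763, and Sesn2 with -0.27 ± 0.13 and 0.181.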

How the data were processed

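Total RNA of control and BIO ureters was hybridized to 2 Agilent 2-color arrays with exchanged dyes. Per the file headers, the authors quantified them with Agilent Feature Extraction 10.7.3.1, and the deposited scanner tables hold raw mean and local background intensities as well as background-subtracted, dye-normalized processed intensities. The log10 ratio that Feature Extraction gave in the deposited tables was not used. The authors also deposited a table with 1 score per probe and array, which follows a signed fold change rounded to 1 decimal. How it was made is not given in the sources used here, and its centering is unknown, although the median was 1 in both columns.

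Ratios were computed with limma 3.58.1 in R 4.3.3 from mean intensities after normexp (offset 50) and loess within each array. Control spots and outlier spots (3.49% and 3.16% of biological spots) were left out, and up to 4 spots of a probe were averaged. Probes well above background in the same group on both arrays were tested (28824), and the turned ratios were set against 0 with eBayes (two-sided), and p-values were adjusted by Benjamini-Hochberg over all tested probes at 0.05. With 1 residual degree of freedom a probe, the common spread is estimated loosely. The median SE of a log2 ratio was 0.11, which the number of arrays limits. Labels and methods point to separate pools, 1 pair an array. A dye term would leave no residual degree of freedom. For the 2-fold rule, processed signals had a floor of 15 and were centered on each array's median. A gene stands by its brightest probe. All probes of the 10 genes are named, together with the 3 called genes of each list with the largest ratio, Nqo1, Gsk3a, Gsk3b, Bach1 and Atf4. Slc3a2, Ddit3, Asns and Sesn2 were named after their values were seen. Names come from RefSeq (GRCm38.p6), probe positions are in mm9 (NCBI37), and these coordinates were not mixed. The members and lists were chosen with earlier results of these data known. In simulated data log2 changes of 1 or 2 in size were planted, all larger than the ratios of the 10 genes. Most of those of size 2 were recovered, and recovery of changes as small as those of the 10 genes was not checked. The share of false calls was well above the nominal 0.05. A call near the threshold, such as that of Slc7a11, is thus less certain than its adjusted p states.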

Additional observations from a re-analysis of the deposited data

How the results depend on the processing

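No further paired analysis was possible because the fit is already paired: each ratio sets BIO against the control RNA of its own array, and no second group of ratios exists to block. Of 91 pairs of a member probe and 1 of 7 alternatives with a test, 83 kept their sign and their side of the threshold. Slc7a11 lost its call in 3 alternatives, with adjusted p values over all 7 from 0.0271 to 0.510 and log2 ratios from 0.29 to 0.61. Among the 13 probes, 0 rose with the processed signals and 0 with median centering, and with the deposited fold changes 1 probe rose (Txnrd1, not Slc7a11) and 2 fell (Gclm and Gsr). These 3 had log2 ratios of 0.14 and -0.14 with an adjusted p of 0.0478, and that table holds 1 decimal, so that 16274 probes have the same entry on both arrays. Hmox1 was called in 0 alternatives, at adjusted p values from 0.0565 to 0.516. The probes of Prdx1 turned sign with median centering, to 0.16 and -0.032, without a call. The median of the 10 genes moved to 0.11 with median centering, where that of all tested genes was -0.04, and was -0.07 to 0.08 with 1 array left out. Of the 75 further genes, 1 rose and 2 fell with the processed signals, 7 fell with median centering and 4 fell with the deposited table, and 4 rose with an intensity-trended prior, an alternative chosen after seeing the data, which brought Bach1 and Gsk3b past the threshold. Gsk3b also passed it with outlier spots kept. Over all tested probes 38.5% of the calls were rises, against 59.0% in the deposited table. With 2 arrays small ratios could not be detected. The unadjusted 95% interval had a median of 0.26 on either side for these probes. Calls used adjusted p values, so the limit lay higher. In the main setting the Hmox1 ratios of 0.32 and 0.37 did not pass, while that of 0.41 for Slc7a11 did.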
